A study of Mus musculus with 8 samples.

Results

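The genes described here are 37 cell cycle and DNA replication genes, a set chosen by gene name, measured in mouse hepatic stellate cells on 8 Affymetrix Mouse Gene ST arrays. A member was taken as found where a probe set carried its symbol and no other, and where a gene had several such probe sets the one with the highest mean stood for it. This gave 35 of the 37 members, among 19938 genes in all. Ccnb1 and Cdkn1a were not analysed here. The members were set apart by role into 15 mitotic genes, 8 genes of DNA replication and nucleotide supply, 8 G1 cyclins and kinases, and 4 inhibitors of cyclin-dependent kinases.

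The knockout group held 4 arrays, numbered 5 to 8, from C57BL/6J-background mice that carried floxed Lhx2 together with the Mx1Cre transgene. The control group held 4 arrays, numbered 1 to 4, from mice of that background with floxed Lhx2 and no Cre. Both groups had received the interferon-inducing double-stranded RNA poly(I:C) 3 times, and both were sampled 2 weeks later. Stellate cells are liver pericytes that store retinoids, and here they were sorted by retinoid autofluorescence and lysed without culture. Mx1Cre is induced by interferon in many cell types, so Lhx2 may also have been lost outside stellate cells, and because only the knockout mice carried Cre, a transgene effect and the loss of Lhx2 cannot be told apart. Whether the arrays of a group stand for separate animals is not stated in the labels, so p-values here reflect array-to-array spread, which may be technical.

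Cells enter the cycle when D-type cyclins with Cdk4 or Cdk6, and then E-type cyclins with Cdk2, phosphorylate the retinoblastoma proteins and release E2F factors, which switch on the genes of DNA replication. Mitotic genes follow in G2 and mitosis, and the complex that represses them in resting cells binds a short promoter element called the cell cycle genes homology region (CHR), with CCAAT boxes bound by NF-Y nearby. Stellate cells are largely quiescent in healthy liver, and after injury they become myofibroblasts that both divide and lay down collagen, so matrix gain and proliferation are often read together.

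Promoter sequences of 5 members are shown because the mitotic members moved together from array to array, and because the elements in them differ by role. Each runs from 170 bases before to 50 bases after the gene's start, as RefSeq gives it on GRCm38.p6. For the mitotic genes Ccnb2 (chr9:70421505-70421724, minus strand), Plk1 (chr7:122159265-122159484, plus strand) and Cdk1 (chr10:69352863-69353082, minus strand), capitals mark matches to the CHR. For the replication genes Mcm5 (chr8:75109339-75109558, plus strand) and Mcm6 (chr1:128359656-128359875, minus strand), capitals mark matches to the E2F motif on either strand, overlapping ones joined.
Ccnb2: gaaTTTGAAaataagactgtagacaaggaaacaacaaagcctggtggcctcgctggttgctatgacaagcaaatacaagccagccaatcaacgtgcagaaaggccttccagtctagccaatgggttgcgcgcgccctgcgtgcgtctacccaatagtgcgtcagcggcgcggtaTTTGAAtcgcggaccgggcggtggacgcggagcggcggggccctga
Plk1: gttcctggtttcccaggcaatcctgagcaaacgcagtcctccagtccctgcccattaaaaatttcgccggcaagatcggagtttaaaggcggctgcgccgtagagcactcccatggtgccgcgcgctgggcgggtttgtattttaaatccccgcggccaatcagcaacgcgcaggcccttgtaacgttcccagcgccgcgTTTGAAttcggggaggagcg
Cdk1: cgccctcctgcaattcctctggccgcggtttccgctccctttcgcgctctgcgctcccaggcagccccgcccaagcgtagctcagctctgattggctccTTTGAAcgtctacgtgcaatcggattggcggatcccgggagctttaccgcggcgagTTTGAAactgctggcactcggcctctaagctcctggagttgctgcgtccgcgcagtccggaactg
Mcm5: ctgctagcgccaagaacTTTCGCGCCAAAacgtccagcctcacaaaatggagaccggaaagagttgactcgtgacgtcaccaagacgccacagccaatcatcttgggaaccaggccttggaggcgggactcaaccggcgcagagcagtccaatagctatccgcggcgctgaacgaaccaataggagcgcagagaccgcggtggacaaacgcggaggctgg
Mcm6: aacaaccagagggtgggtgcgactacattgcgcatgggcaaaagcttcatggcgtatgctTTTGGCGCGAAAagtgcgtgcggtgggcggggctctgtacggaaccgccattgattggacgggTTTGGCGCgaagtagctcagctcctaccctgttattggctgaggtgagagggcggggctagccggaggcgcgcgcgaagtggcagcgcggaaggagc

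The CHR was searched as TTTGAA or TTCGAA, the NF-Y box as CCAAT, and the E2F motif as TTTCCCGC or TTTGGCGC or TTTCGCGC or TTTGCCGC, each on both strands, in windows from 250 bases before to 50 after the start. Windows were found for 11 of 15 mitotic, 8 of 8 replication, 5 of 8 G1 and 3 of 4 inhibitor members. Matches of different motifs did not overlap in the members' windows. The CHR stood in 10 of the 11 windows of mitotic members (90.9%), in 1 of 8 windows of replication members (12.5%) and in 19.2% of all 32851 windows. A CCAAT box stood in 10 of 11 mitotic and 6 of 8 replication windows, against 37.4% of all windows. The E2F motif stood in 1 of 11 mitotic windows, that of Cdk1, in 3 of 8 replication windows (37.5%), those of Mcm3, Mcm5 and Mcm6, and in 2.26% of all windows. None of the 6 windows of G1 members held the CHR. A match is a run of letters, and binding was not measured.

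Values are log2 expression values normalized with RMA (the Robust Multichip Algorithm), so a difference of 1 is a doubling. They ran from 4.19 to 14.4, with array medians of 7.42 to 7.47, and across probe sets Pearson's r was 0.993 to 0.996 within knockout, 0.987 to 0.996 within control and 0.984 to 0.991 between groups. The number of arrays limits the precision. Olfactory and vomeronasal receptor genes, 1190 of them, served as a guide to unexpressed levels, and 32 of the 35 members had a mean above their 95th percentile of 6.77; Bub1, Birc5 and Ccne2 did not. The targeted gene Lhx2, a LIM homeobox transcription factor, measured 11.09, 11.24, 11.35 and 11.49 in knockout arrays 5 to 8, against 12.07, 11.88, 11.94 and 11.92 in control arrays 1 to 4. All knockout arrays lay below all controls, and Lhx2 fell to 63.3% of the control level (log2 difference -0.66, SE 0.09, limma adjusted p = 0.00136). Where its probes lie relative to the floxed part is not stated in the labels.

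By limma no cell cycle member was called higher in the knockout, though Ccnd3 and Cdk4 were in some of the alternative fits given below. Of the 35 members 2 fell, the G1 cyclin gene Ccnd2 and the replication helicase gene Mcm5, and the other 33 did not pass the threshold of 0.05 on the limma adjusted p, taken over all genes. Of all 19938 genes, 7.38% were called in either direction, 3.76% higher and 3.63% lower, so 2 of 35 lies near the background. Without adjustment, 8 members had a p under 0.05, 3 of them higher and 5 lower, against 17.5% of all genes. Groups did not overlap for 6 members (Cdk1, Mcm5, Ccnd2, Ccnd3, Cdk4 and Cdk6), against 12.7% of all genes. The log2 difference of knockout minus control was below 0 for 28 members and above 0 for 7, against 11437 below 0 and 8501 above 0 of all genes. Its median was -0.10 over the members and -0.02 over all genes.

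**Figure D1:**
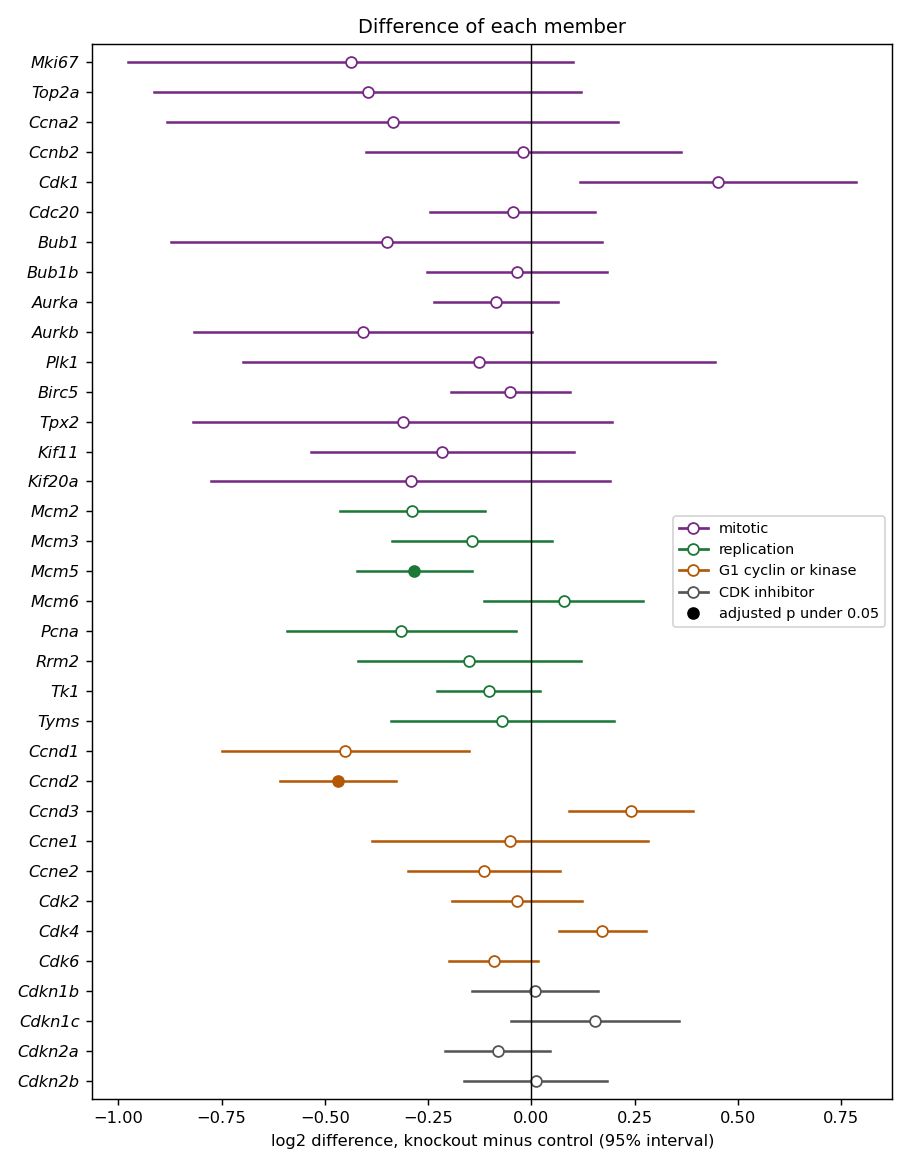
Log2 difference, knockout minus control, of each of the 35 members (rows, coloured by role), with its 95% interval; filled points passed the adjusted p threshold of 0.05. The filled points are Mcm5 at -0.28 and Ccnd2 at -0.47, and the intervals of most mitotic genes are wide.

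None of the 15 mitotic members was called by limma in either direction, and 1 of them, Cdk1, had an unadjusted p under 0.05. Their log2 differences ran from -0.44 to 0.45 with a median of -0.22, and 14 of 15 were below 0. Mki67, which coats chromosomes in dividing cells and is the usual mark of proliferation, measured 7.65, 7.60, 8.46 and 7.37 in knockout arrays 5 to 8, against 7.73, 8.39, 8.52 and 8.19 in control arrays 1 to 4. Knockout array 7 reached the level of the higher controls, control array 1 lay near the lower knockouts, and the groups overlapped. The log2 difference of Mki67 was -0.44 (95% interval -0.98 to 0.10, limma adjusted p = 0.430). Top2a, the topoisomerase that untangles DNA before chromosomes part, measured 7.31, 7.39, 8.05 and 6.95 in knockout, against 7.36, 7.93, 8.14 and 7.86 in control. The order of the arrays was much like that of Mki67, with an overlap of the groups and a log2 difference of -0.40 (limma adjusted p = 0.470). A second Top2a probe set averaged 4.93 in knockout and 4.95 in control, within the range of unexpressed genes.

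Cdk1, the kinase that drives entry into mitosis, was the one mitotic member above 0. It measured 9.93, 10.15, 10.37 and 10.09 in knockout arrays 5 to 8, against 9.24, 9.81, 9.91 and 9.77 in control arrays 1 to 4. Every knockout array was above every control, though knockout array 5 only just cleared control array 3. The log2 difference was 0.45 (95% interval 0.12 to 0.79) with an unadjusted p of 0.0133 in limma, and after adjustment over all genes the p was 0.122. Its cyclin partners among the measured members did not follow, and its partner Ccnb1 was not analysed here. Ccna2, which acts in S phase and G2, differed by -0.34 (limma adjusted p = 0.602). Ccnb2, the mitotic cyclin whose printed promoter holds the CHR in 2 places, differed by -0.02 (limma adjusted p = 0.979).

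Among mitotic kinases, Plk1, which acts at centrosomes, kinetochores and the midbody, measured 7.91, 7.90, 8.88 and 7.61 in knockout, against 7.79, 8.28, 8.46 and 8.28 in control. Its highest and its lowest array were both knockouts, and the log2 difference was -0.13 (limma adjusted p = 0.897). Aurkb, the kinase of the chromosomal passenger complex, measured 8.47, 8.32, 8.91 and 7.88 in knockout, against 8.68, 8.76, 8.95 and 8.82 in control. Only knockout array 7 reached the controls, and the log2 difference of -0.41 gave a limma adjusted p of 0.289; without that array it was -0.58, with an adjusted p of 0.0435. Aurka, the spindle pole kinase, differed by -0.09, and Birc5 (survivin), another subunit of the passenger complex, by -0.05.

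The spindle checkpoint genes Bub1 and Bub1b differed by -0.35 and -0.04 on the log2 scale, and Cdc20, which turns on the anaphase-promoting complex, by -0.05. The spindle genes Tpx2, which activates Aurora A, Kif11, the kinesin that pushes spindle poles apart, and Kif20a, a kinesin of cytokinesis, differed by -0.31, -0.22 and -0.29. None of these 6 passed the test, with limma adjusted p values of 0.547 to 0.928. For 14 of the 15 mitotic members the upper bound of the 95% interval was under 0.5 on the log2 scale, Cdk1 reaching 0.79. The same held for 18722 of all 19938 genes. The lower bounds of the mitotic members went down to -0.98.

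**Figure D2:**
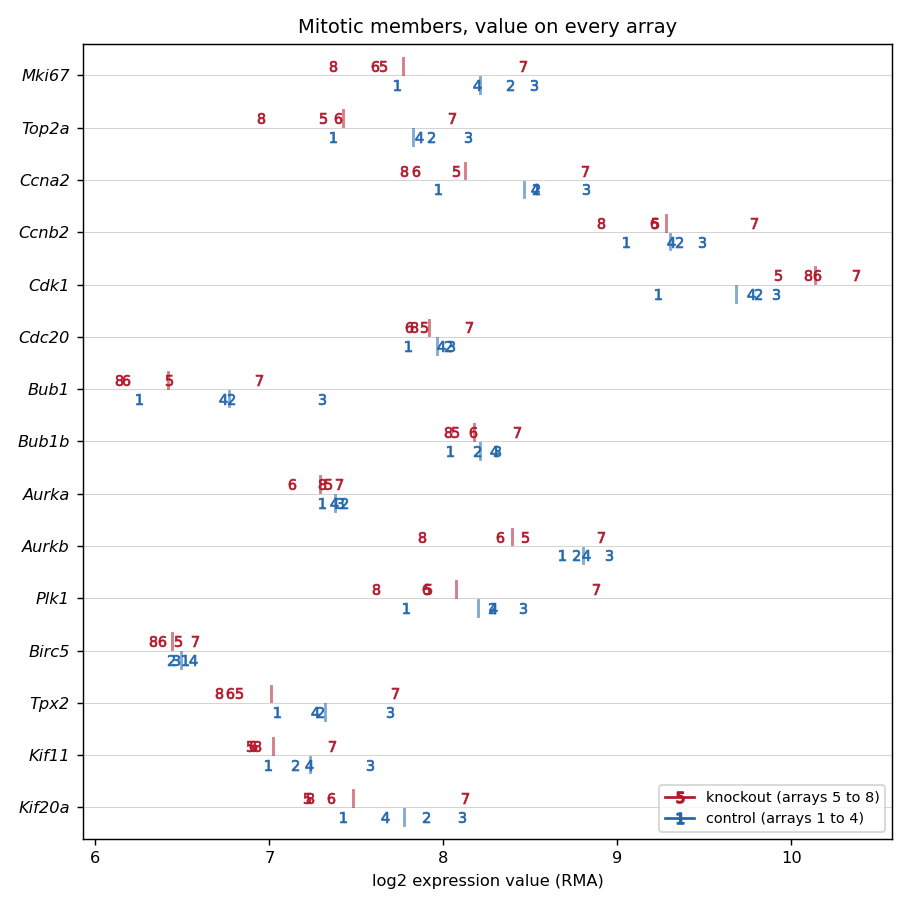
Log2 expression value (x axis) of the 15 mitotic members on every array; digits give the array number, red for knockout 5 to 8 and blue for control 1 to 4, and vertical ticks mark group means. Knockout 7 is the highest knockout array for 15 of 15 genes and control 1 the lowest control for 14.

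The mitotic members varied more between arrays than most genes, and they did so together. The median SD was 0.37 in knockout and 0.27 in control for mitotic members, against 0.09 and 0.11 for all genes. Knockout array 7 was the highest knockout array for 15 of 15 mitotic members and knockout array 8 the lowest for 10. Among controls, array 3 was the highest for 13 and array 1 the lowest for 14. The mean over the mitotic members was 7.71, 7.67, 8.26 and 7.54 in knockout arrays 5 to 8, against 7.68, 8.02, 8.21 and 7.99 in control arrays 1 to 4. The highest and the lowest mean were thus both knockouts, and the range within the knockout group, 0.72, was larger than the -0.18 between the group means. The median log2 difference of the mitotic members was -0.39 without knockout array 7, -0.10 without control array 3 and -0.34 without control arrays 1 and 4.

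Marker genes of other liver cells also varied between arrays. The 11 hepatocyte markers averaged 9.91, 9.31, 10.88 and 10.10 in knockout arrays 5 to 8, against 11.05, 9.82, 10.79 and 8.96 in control arrays 1 to 4, with 0 of 11 called by limma and 1 at an unadjusted p under 0.05. The highest hepatocyte mean was in control array 1, where the mitotic mean was the lowest of the controls, and knockout array 7 was the highest knockout in both. The 12 sinusoidal endothelial markers averaged 8.39, 9.53, 9.24 and 9.90 in knockout, against 8.28, 10.66, 9.40 and 11.16 in control, with 1 of 12 called lower, Clec4g, all 12 differences below 0 and a median of -0.55. The 11 Kupffer and myeloid markers averaged 7.16, 7.08, 7.46 and 7.38 in knockout, against 7.49, 7.90, 7.35 and 7.14 in control. Knockout array 7 was the highest knockout here too. Of these 11 markers 1 was called lower, Cd68, and 4 were lower at an unadjusted p under 0.05 in limma. The mean of 4 of the 11 lay below the unexpressed guide. Lymphocyte markers averaged 6.07 to 6.12 in knockout and 5.96 to 6.18 in control, with 8 of 10 below that guide. None of the 7 erythroid and progenitor or 6 cholangiocyte markers was called. The part of these cells in the mitotic levels was not tested, and in such bulk values fewer cells of a type and less RNA per cell cannot be told apart.

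The 11 markers of the sorted cells themselves were all above the unexpressed guide, averaging 12.54 to 12.56 in knockout and 12.81 to 12.89 in control. Of these 11 stellate markers 5 fell, among them Gfap (-1.48), Rgs5 (-0.52), Hand2 (-0.48) and Hgf (-0.37), each with a limma adjusted p under the threshold. Of all genes 3.63% were called lower. The other 6 markers did not pass: Lrat (0.10), Des (0.07), Colec11 (0.02), Pdgfrb (-0.03), Ecm1 (-0.11) and Ngfr (-0.23).

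The replication and nucleotide genes lay closer together between arrays. Of 8 members 1 fell and 7 did not pass, and the median log2 difference was -0.15, with 7 of 8 below 0. Mcm5, a subunit of the replicative MCM helicase, measured 8.95, 8.82, 8.85 and 8.74 in knockout arrays 5 to 8, against 9.11, 9.03, 9.17 and 9.18 in control arrays 1 to 4. All knockout arrays were below all controls, and Mcm5 fell to 82.1% of the control level (8.84 ± 0.09 in knockout and 9.12 ± 0.07 in control, SD, n = 4 each; log2 difference -0.28, SE 0.06, limma adjusted p = 0.0225). The call was lost when any one of knockout arrays 6, 7 and 8 or control arrays 3 and 4 was left out. It was also lost without control arrays 1 and 4 together, with an adjusted p of 0.179, the highest over the alternatives.

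The other helicase subunits did not pass. Mcm2 measured 9.19, 9.08, 9.06 and 9.03 in knockout, against 9.37, 9.18, 9.51 and 9.47 in control, and its groups overlapped at knockout array 5 and control array 2. Its log2 difference was -0.29 with a limma adjusted p of 0.0586, and it was called lower after quantile normalization and without control array 2. Mcm3 differed by -0.14 (limma adjusted p = 0.489). Mcm6, whose promoter above holds the E2F motif in 2 places, differed by 0.08 (limma adjusted p = 0.777). The remaining subunits of the ring, Mcm4 and Mcm7, which are no members, differed by -0.03 and -0.10 and did not pass either.

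Pcna, the sliding clamp that holds DNA polymerase on its template, measured 11.34, 11.31, 11.06 and 11.41 in knockout arrays 5 to 8, against 11.37, 11.75, 11.41 and 11.86 in control arrays 1 to 4. Controls 2 and 4 stood above the rest and controls 1 and 3 overlapped the knockouts. The log2 difference was -0.31 by the probe set used and -0.31 by a second one (limma adjusted p = 0.214 for the first); near-identical copies of this gene could share the probes. The nucleotide supply genes did not pass: Rrm2, the regulated subunit of ribonucleotide reductase, differed by -0.15, Tk1 (thymidine kinase) by -0.10 and Tyms (thymidylate synthase) by -0.07, with limma adjusted p values of 0.420 to 0.873.

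Among the G1 genes the D-type cyclins lay on both sides of 0, and 1 of them passed the test. Ccnd2, the cyclin D2 gene, measured 12.48, 12.36, 12.42 and 12.27 in knockout arrays 5 to 8, against 12.89, 12.75, 12.91 and 12.86 in control arrays 1 to 4. Every knockout array lay below every control with a clear gap, and Ccnd2 fell to 72.3% of the control level (12.38 ± 0.09 in knockout and 12.85 ± 0.07 in control, SD, n = 4 each). The log2 difference was -0.47 (SE 0.06, 95% interval -0.61 to -0.33, limma adjusted p = 0.00148), and the call stood in 16 of 17 alternatives, failing only where a change of at least 1.5-fold was also asked for.

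Ccnd1, the cyclin D1 gene, measured 11.41, 10.86, 11.31 and 10.98 in knockout, against 11.53, 11.38, 11.78 and 11.68 in control. Knockout array 5 lay just above control array 2, so the groups overlapped, and the log2 difference of -0.45 did not pass (95% interval -0.75 to -0.15, limma adjusted p = 0.0839; 0.0482 without knockout array 5). Ccnd3, the cyclin D3 gene, measured 11.56, 11.55, 11.62 and 11.56 in knockout, against 11.29, 11.17, 11.46 and 11.40 in control. All knockout arrays were above all controls, and the log2 difference of 0.24 had a limma adjusted p of 0.0654. Their partner kinase Cdk4 measured 12.51, 12.50, 12.56 and 12.54 in knockout, against 12.37, 12.30, 12.40 and 12.35 in control. These groups did not overlap either, at a log2 difference of 0.17 with a limma adjusted p of 0.0586. Ccnd3 and Cdk4 were called higher after quantile normalization, with a trended robust variance and with array weights, and Ccnd3 also without control array 3.

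Cdk6, the other partner kinase, did not pass although its groups did not overlap (log2 difference -0.09, limma adjusted p = 0.402). The E-type cyclins Ccne1 and Ccne2, which start S phase, differed by -0.05 and -0.11, and their kinase Cdk2 by -0.03, with limma adjusted p values of 0.600 to 0.933. Over the 8 G1 members 1 fell, 7 did not pass, and the median log2 difference was -0.07.

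**Figure D3:**
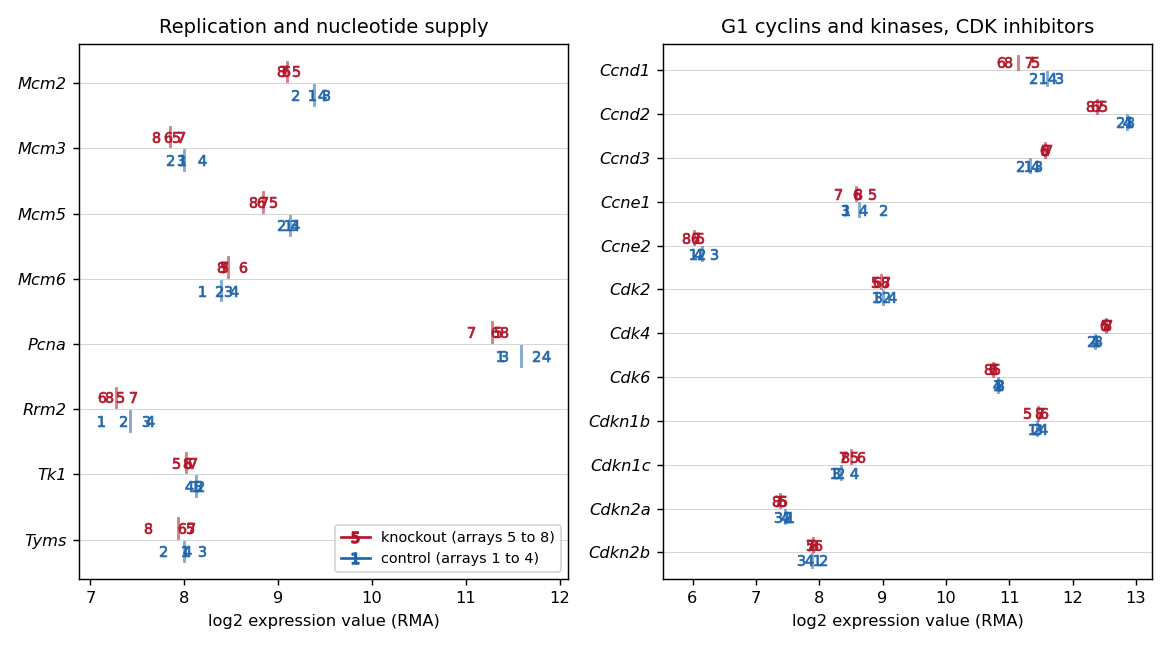
Log2 expression value (x axis) of the replication members (left panel) and of the G1 cyclins, kinases and CDK inhibitors (right panel) on every array; digits give the array number, red for knockout 5 to 8 and blue for control 1 to 4, and ticks mark group means. Ccnd2 and Mcm5 show the knockout arrays below all controls, and Ccnd3 and Cdk4 above them.

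None of the 4 measured inhibitors of cyclin-dependent kinases was called by limma, with 0 at an unadjusted p under 0.05, and their median log2 difference was 0.01. Cdkn1b (p27), which holds Cdk2 in check in resting cells, measured 11.29, 11.55, 11.49 and 11.46 in knockout arrays 5 to 8, against 11.36, 11.42, 11.45 and 11.53 in control arrays 1 to 4. The arrays of both groups were interleaved, with a log2 difference of 0.01 (95% interval -0.15 to 0.16, limma adjusted p = 0.977). A second, dimmer Cdkn1b probe set differed by 0.10, with a wider 95% interval of -0.33 to 0.53. Cdkn1c (p57), of the same family, measured 8.55, 8.66, 8.37 and 8.41 in knockout, against 8.23, 8.33, 8.26 and 8.56 in control. Control array 4 stood among the knockouts, and the log2 difference was 0.15 (95% interval -0.05 to 0.36, limma adjusted p = 0.479). Cdkn2b (p15), an inhibitor of Cdk4 and Cdk6, differed by 0.01, and Cdkn2a by -0.08 (limma adjusted p = 0.975 and 0.581). The p16 and Arf transcripts of Cdkn2a were not told apart here.

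Of 133 other genes of the same roles, measured in 4 lists, 4 rose and 5 fell, a share near the 7.38% of all genes called in either direction. Of 51 other mitotic genes none rose, 4 fell and 47 did not pass in limma, with 48 of 51 differences below 0 and a median of -0.17. The mean of 23 of the 51 lay below the unexpressed guide, and 11437 of all 19938 genes had a difference below 0. At an unadjusted p under 0.05, 1 of the 51 was higher and 18 were lower, against 1776 higher and 1708 lower of all 19938 genes (17.5% in either direction). The largest falls among the 4 called genes were in genes of cytokinesis, of kinase binding and of the centromere. Anln, the actin-binding scaffold of the cleavage furrow, measured 8.66, 8.91, 9.35 and 8.71 in knockout arrays 5 to 8, against 9.60, 10.00, 10.00 and 9.95 in control arrays 1 to 4 (log2 difference -0.98, SE 0.15, limma adjusted p = 0.00406). Cks2, a small subunit that binds cyclin-dependent kinases, measured 10.03, 10.15, 10.17 and 10.45 in knockout, against 11.10, 11.33, 11.02 and 11.20 in control (log2 difference -0.96, SE 0.10, limma adjusted p = 0.000289). Cenpa, the histone H3 variant of centromeres, measured 8.08, 8.32, 8.66 and 8.24 in knockout, against 9.04, 9.05, 9.08 and 9.25 in control (log2 difference -0.78, SE 0.11, limma adjusted p = 0.00249). Each of these 3 had all knockout arrays below all controls, and each call stood in 17 of 17 alternatives. The 3 Cks2 probe sets fell by 0.96, 1.05 and 1.09 on the log2 scale, though near-identical copies of this gene could share their probes. The fourth, Cdc25c, a phosphatase that activates Cdk1, differed by -0.21 (limma adjusted p = 0.0431) at a level below the unexpressed guide, and was called in 5 of 16 alternatives.

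The array pattern of the mitotic members recurred in this list. Knockout array 7 was the highest knockout array for 42 of the 51 other mitotic genes and knockout array 8 the lowest for 38. Control array 3 was the highest control for 29 and control array 1 the lowest for 37. A CHR stood in 35 of the 50 promoter windows of this list (70.0%).

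Of 42 other replication genes 2 rose, none fell in limma (4 were lower at an unadjusted p under 0.05), and the median log2 difference was -0.02. Cdc7, the kinase that fires replication origins, averaged 6.95 ± 0.04 in knockout and 6.55 ± 0.17 in control (SD, n = 4 each; log2 difference 0.40, limma adjusted p = 0.0145), and its mean over the 8 arrays lay below the unexpressed guide. Gins4, a subunit of the active helicase, averaged 10.41 ± 0.13 in knockout and 10.08 ± 0.09 in control (SD, n = 4 each; log2 difference 0.34, limma adjusted p = 0.0300). Among 20 other G1 genes 1 rose, the Cdk-activating kinase Cdk7 (log2 difference 0.29, limma adjusted p = 0.0395), with a list median of -0.03. A second Cdk7 probe set differed by 0.48 and did not pass (limma adjusted p = 0.121). The Cdc7 call was lost without knockout array 6, that of Gins4 without any one of 5 arrays (knockout 6 and 7, control 1, 2 and 3), and that of Cdk7 without any one array but control 3.

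Among 20 other inhibitors and growth arrest genes 1 rose, 1 fell and the median log2 difference was 0.04. Cdkn2c (p18), which binds Cdk4 and Cdk6, measured 9.67, 10.06, 10.24 and 10.09 in knockout arrays 5 to 8, against 8.84, 9.13, 9.48 and 9.01 in control arrays 1 to 4. All knockout arrays were above all controls, and Cdkn2c rose 1.87-fold (log2 difference 0.90, SE 0.15, limma adjusted p = 0.00587; 0.0690 without control arrays 1 and 4). Btg2, an antiproliferative gene that is also induced by stress, measured 12.11, 12.07, 11.47 and 12.20 in knockout, against 12.44, 12.85, 12.51 and 13.04 in control. It fell with a log2 difference of -0.75 (limma adjusted p = 0.0365), and the call was lost without any one of knockout arrays 5 and 6 or control arrays 2 and 4.

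**Figure D4:**
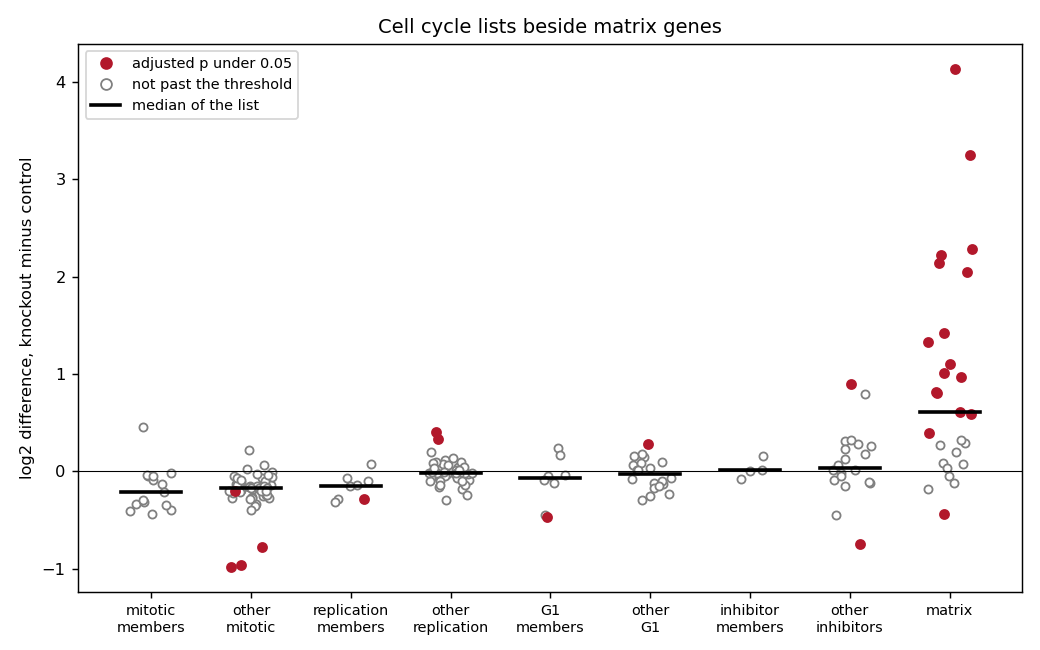
Log2 difference, knockout minus control (y axis), of every measured gene in the 4 member groups, the 4 wider cell cycle lists and the matrix list; filled points passed the adjusted p threshold of 0.05 and bars mark list medians. The medians of the cell cycle lists lie between -0.22 and 0.04, and that of the matrix genes at 0.61.

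Matrix genes, set beside the cell cycle genes on the same arrays, were higher in the knockout in most cases. Of 27 measured matrix genes 16 rose, 1 fell and 10 did not pass, with a median log2 difference of 0.61. The fibrillar collagen gene Col3a1 measured 11.90, 12.04, 11.92 and 11.82 in knockout arrays 5 to 8, against 10.88, 10.97, 11.01 and 10.96 in control arrays 1 to 4 (log2 difference 0.97, SE 0.06, limma adjusted p = 1.1e-05). Svep1, a large secreted adhesion protein, rose by 4.14 on the log2 scale, the elastic fibre gene Fbln1 by 3.25, the glycoprotein gene Tnc by 2.22, and the collagen VI genes Col6a2 and Col6a3 by 1.42 and 1.10, all called in 17 of 17 alternatives. Postn, the periostin gene, fell (log2 difference -0.44, limma adjusted p = 0.00553). By limma 16 of the 27 matrix genes were thus called higher and 0 of the 35 cell cycle members, against 3.76% of all genes. The lists were chosen with earlier results of these data known, so this contrast only describes them. Precision also differed, with a median SE of 0.08 for the matrix genes, 0.09 for all members and 0.18 for the mitotic ones.

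Array by array the matrix genes did not follow the mitotic ones between groups. The mean over the matrix genes was 11.38, 11.41, 11.46 and 11.35 in knockout arrays 5 to 8, against 10.31, 10.48, 10.55 and 10.46 in control arrays 1 to 4, with no overlap. The mean over the replication members was 8.64, 8.60, 8.62 and 8.51 in knockout, against 8.66, 8.68, 8.81 and 8.87 in control. These means did not overlap either, with the knockouts narrowly lower. The inhibitor members averaged 8.76 to 8.90 in knockout and 8.69 to 8.84 in control. Within the groups, knockout array 7 and control array 3 had the highest mean of their group for the matrix genes as for the mitotic members, and control array 1 the lowest control mean for both. Of 12 markers of portal fibroblasts, another matrix-producing cell of the liver, 6 were called higher by limma, against 3.76% of all genes. The other 6 did not pass, and 4 of the 12 were below 0: Entpd2 (-0.29), Thy1 (-0.10), Msln (-0.02) and Pi16 (-0.01). Dpt, Eln, Fbln2 and Mfap4 stand in the matrix list too, and Fbln2 was not called. The portal fibroblast list averaged 8.78 to 8.99 in knockout and 7.68 to 7.98 in control. The part of these cells in the matrix values was not tested. The arrays measured transcripts, and the number of dividing cells was not measured.

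**Figure D5:**
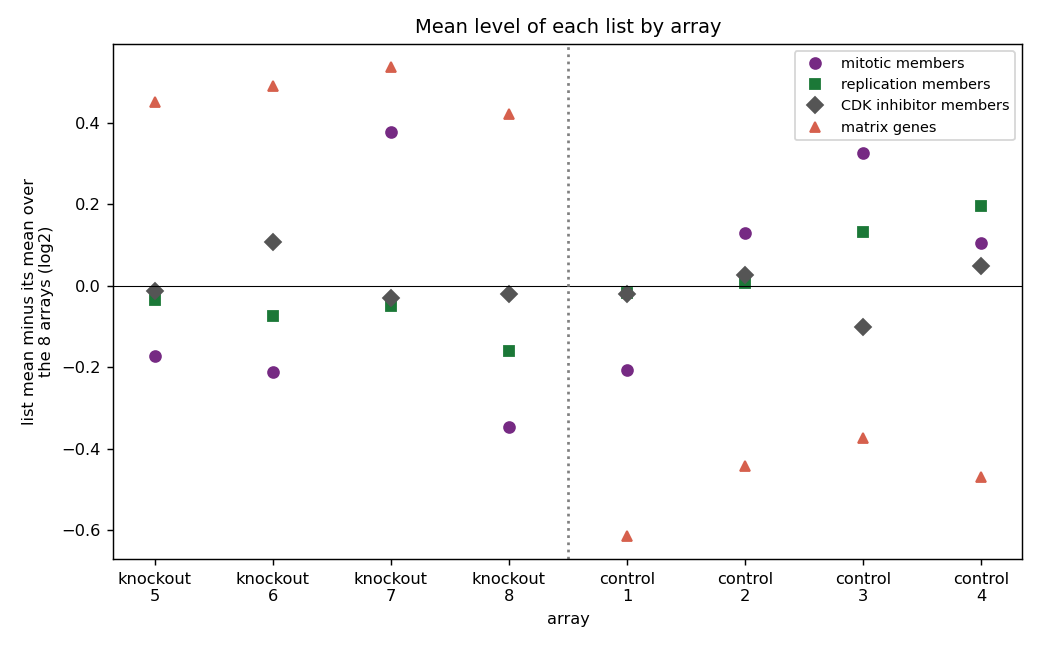
Mean over each list on every array, minus the list's mean over the 8 arrays (y axis, log2), for knockout arrays 5 to 8 (left) and control arrays 1 to 4 (right). Matrix genes are higher on all 4 knockout arrays, while the mitotic members peak on knockout 7 and control 3.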

How the data were processed

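RNA of sorted hepatic stellate cells was measured on 8 arrays, 4 knockout and 4 control, with 150 ng of RNA per array. The deposited log2 values, 1 for each probe set on each array, had been normalized with RMA, as the submitters' processing notes and, per the labels, the protocol say. No source used here gives the RMA version, its annotation or any batch, and batches were not tested. Differences at the dim and at the bright end can be understated in such array values.

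Of 35556 probe sets, a platform annotation gave 21789 a single gene symbol, 1621 several and 12146 none; 21698 matched RefSeq (GRCm38.p6) by gene identifier, which changed 0 symbols. For 999 genes with several probe sets the one with the highest mean was used. Knockout minus control was fitted over all 19938 genes with limma 3.58.1 (lmFit, eBayes; R 4.3.3), two-sided, taking 0.05 as the threshold on Benjamini-Hochberg adjusted p-values; the script was tested on simulated data. The members, lists and tests were chosen with earlier results of these data known. Every member is named, with up to 6 called genes of each wider list by adjusted p; 3 genes outside that rule, Mcm4, Mcm7 and Postn, were named after their values were seen. Alternatives were median centring, quantile normalization, leaving out dim genes, a trended robust variance, array weights, the mean of a gene's probe sets, leaving out each array or control arrays 1 and 4, a threshold of 0.01, and a 1.5-fold minimum. Lists were described by counts and medians with no test of their own.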

Additional observations from a re-analysis of the deposited data

Results flagged for a closer look

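Among the 70 groups of 4 arrays tested (35 members in knockout and in control), 5 held an array far from the other 3 by Dixon's criterion, and chance gives about 1 in 20 groups. In 3 spindle genes it was knockout array 7: Tpx2 measured 7.72 there and 6.71 to 6.83 on the other knockout arrays, Kif11 7.36 against 6.89 to 6.93, and Kif20a 8.12 against 7.21 to 7.35. Knockout array 7 was also the array apart for the cyclin gene Ccnd3, at 11.62 against 11.55 to 11.56. For the helicase gene Mcm6 it was knockout array 6, at 8.63 against 8.39 to 8.43 on the other knockout arrays.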

How the results depend on the processing

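With 4 arrays a group, modest changes of the variable mitotic genes are limited by the spread between arrays. No paired analysis was made because the labels name no pairing of knockout and control arrays. Scaling moved the median of all genes by less than 0.1 on the log2 scale. The cause of the changes below was not tested.

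Members called higher numbered 2 after quantile normalization, 2 with a trended robust variance and 2 with array weights (Ccnd3 and Cdk4 each time). Leaving out single arrays gave 0 to 1 higher and 1 to 3 lower; members called lower numbered 1 without control arrays 1 and 4, 1 at a threshold of 0.01 and 0 at 1.5-fold. Of the 35 members, 8 changed sign on leaving out single arrays, all with limma adjusted p of 0.720 or more: Ccnb2 (-0.19 to 0.10), Bub1b (-0.12 to 0.013), Plk1 (-0.39 to 0.028), Tyms (-0.15 to 0.036), Ccne1 (-0.13 to 0.073), Cdk2 (-0.070 to 0.011), Cdkn1b (-0.027 to 0.063) and Cdkn2b (-0.050 to 0.064).

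Other mitotic genes called lower numbered 8 with array weights and 3 to 6 on leaving out single arrays. Other replication genes called higher numbered 1 without dim genes, 0 to 2 on leaving out single arrays, and 0 without control arrays 1 and 4, at 0.01 and at 1.5-fold. Those called lower numbered 1 after quantile normalization, 2 with array weights and 0 to 2 on leaving out single arrays. Other G1 genes called lower numbered 1 after quantile normalization and 2 with array weights, and on leaving out single arrays 0 to 1 were higher and 0 to 1 lower; 0 were higher without control arrays 1 and 4, at 0.01 and at 1.5-fold. Other inhibitors called lower numbered 0 after quantile normalization, with a trended robust variance, without control arrays 1 and 4 and at 0.01, and 0 to 1 on leaving out single arrays; 0 were higher without control arrays 1 and 4. Matrix genes called lower numbered 2 with a trended robust variance and 0 at 1.5-fold.

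All genes called higher and lower numbered 371 and 405 without control arrays 1 and 4, 386 and 389 at 0.01, 284 and 239 at 1.5-fold, and 502 to 790 and 487 to 677 on leaving out single arrays.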
